A study of Macaca mulatta with 6 samples.

Results

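PPARG, a lipid-sensing nuclear receptor, was examined together with lipid-handling genes linked to it and with scavenger and lectin receptors of macrophages. The 10 genes are PPARG, FABP4, FABP5, CD36, LPL, PLIN2, MARCO, MSR1, MRC1 and APOE. Their rows were found by gene symbol, taking the row with the highest total count where a symbol had several. Of the 10, 9 have a row among the 32386 rows of the deposited count table, and FABP5 was not analysed here. The samples are 6 single colonies grown from rhesus macaque (Macaca mulatta) bone marrow. Mobilized blood stem and progenitor cells carrying the surface marker CD34 had been edited with CRISPR/Cas9 and given back to the animals they came from. Marrow CD34+ cells were then taken 15 months after transplantation, plated singly in MethoCult semisolid medium and grown for 14 days, and each picked colony was divided between DNA and RNA. DNA typing gave 3 wild-type colonies (WT) and 3 colonies with a predicted loss-of-function mutation on a single allele of TET2 (TET2 UA, called UA below), all of the granulocyte-macrophage type (CFU-GM). TET2 is an enzyme that oxidises 5-methylcytosine in DNA. Both groups share the editing, the transplant and the culture. Each library stands for 1 colony, the number of animals and the mutation carried by each colony are not given in the labels, and the p-values therefore reflect no more than the spread among these 6 libraries, part of which may be technical.

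PPARG binds DNA as a heterodimer with a retinoid X receptor and is activated by fatty acids and their derivatives. In adipocytes it drives fat storage, and in the myeloid lineage it is best known from alveolar macrophages, where the growth factor GM-CSF induces it and where it is needed for surfactant lipid handling. Its textbook target genes act along a path: LPL releases fatty acids from lipoproteins, CD36 takes up fatty acids and oxidised lipoproteins, FABP4 and FABP5 carry fatty acids in the cytosol, and PLIN2 coats lipid droplets. APOE accepts cholesterol leaving the cell. MSR1 and MARCO are class A scavenger receptors that bind modified lipoproteins and bacteria, and MRC1 (CD206) is the macrophage mannose receptor, a marker of alternatively activated macrophages.

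The libraries held 6334264 to 25485143 counts, and 13768 genes passed the filter on low counts. TET2 itself was higher in the UA libraries, at 93.8 ± 14.9 CPM (counts scaled for library size; SD, n = 3) in WT and 231 ± 6.65 CPM in UA (log2 fold change 1.30, SE 0.16, adjusted p = 3.93e-05 by edgeR's quasi-likelihood test), so the groups are named throughout by their labels. The UA libraries were closer to one another than the WT libraries were. The median coefficient of variation over tested genes was 10.9% in UA and 25.5% in WT, and WT replicate 1 stood apart from WT replicates 2 and 3. Cell-type marker lists also moved between the groups. The summed level of the granulocyte precursor list lay between 1171 and 1297 CPM in WT and between 24330 and 25184 CPM in UA, led in both by MPO, an azurophil granule enzyme. The monocyte and macrophage list summed to 1797 to 2234 CPM in WT, led by CD14, and to 8449 to 8622 CPM in UA, led by LYZ. Of its 14 tested genes, 11 rose, CD14 and FCGR1A fell, and CSF1R, the macrophage growth factor receptor, was at 82.5 to 154 CPM in WT and 145 to 153 CPM in UA. Of the 14, those that rose were 78.6% and those that fell 14.3%, beside 34.6% and 31.4% of all tested genes. CX3CR1, MERTK and TIMD4 of this list passed the filter on low counts through the UA libraries alone. In bulk libraries, fewer cells of a type and less RNA per cell cannot be told apart.

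**Figure D1:**
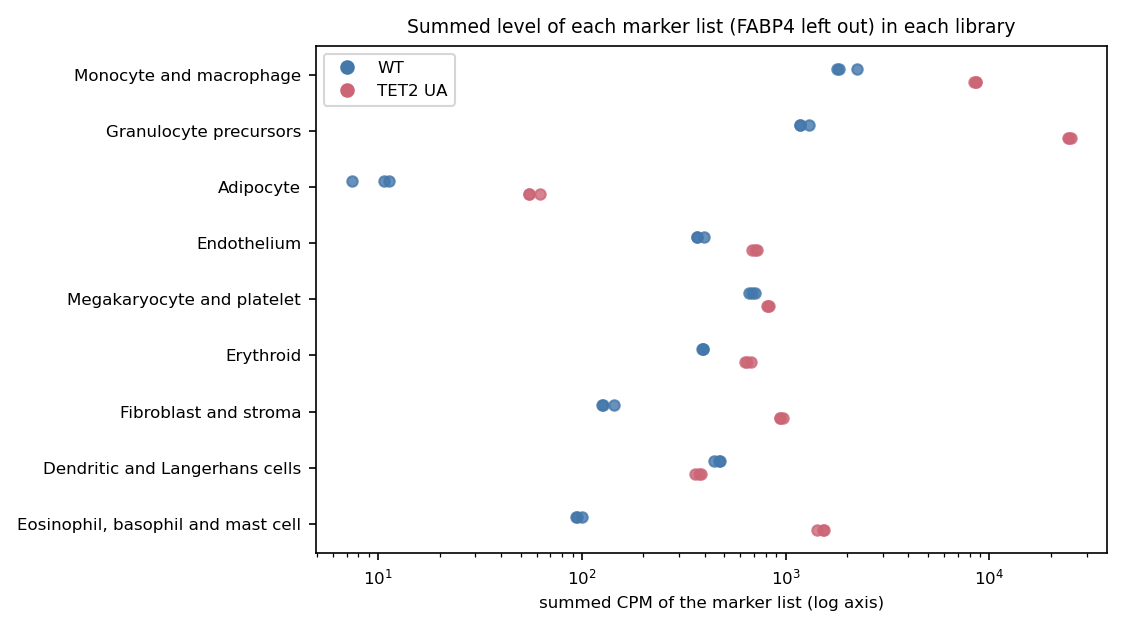
Summed level of each cell-type marker list (CPM, log axis; FABP4 left out of the endothelium list) in each library, with WT and UA libraries in different colours. The granulocyte precursor sums are 1171 to 1297 CPM in WT and 24330 to 25184 CPM in UA, and the dendritic sums are higher in WT.

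Of the 9 genes, 6 rose in UA (FABP4, MSR1, APOE, CD36, PPARG and LPL), PLIN2 fell, and MARCO and MRC1 did not pass the test. A gene was called at an adjusted p under 0.05 over all genes tested, and a positive log2 fold change means a higher level in UA. Calls were frequent in this comparison: 66% of all tested genes were called, 34.6% higher and 31.4% lower in UA, and the CPM ranges of the groups did not overlap in 73.2%. The groups did not overlap in 7 of the 9 genes, those that were called. The median log2 fold change over all tested genes was 0.12. The filter asked for about 0.886 CPM in 3 libraries. MSR1 and MARCO reached that in 3 libraries of UA alone, so they could be tested only because they are present there, and their counts give no support of their own; the other 7 genes reached it in both groups. Levels are TMM-scaled CPM. They are not divided by gene length, so they are compared between libraries and not between genes.

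**Figure D2:**
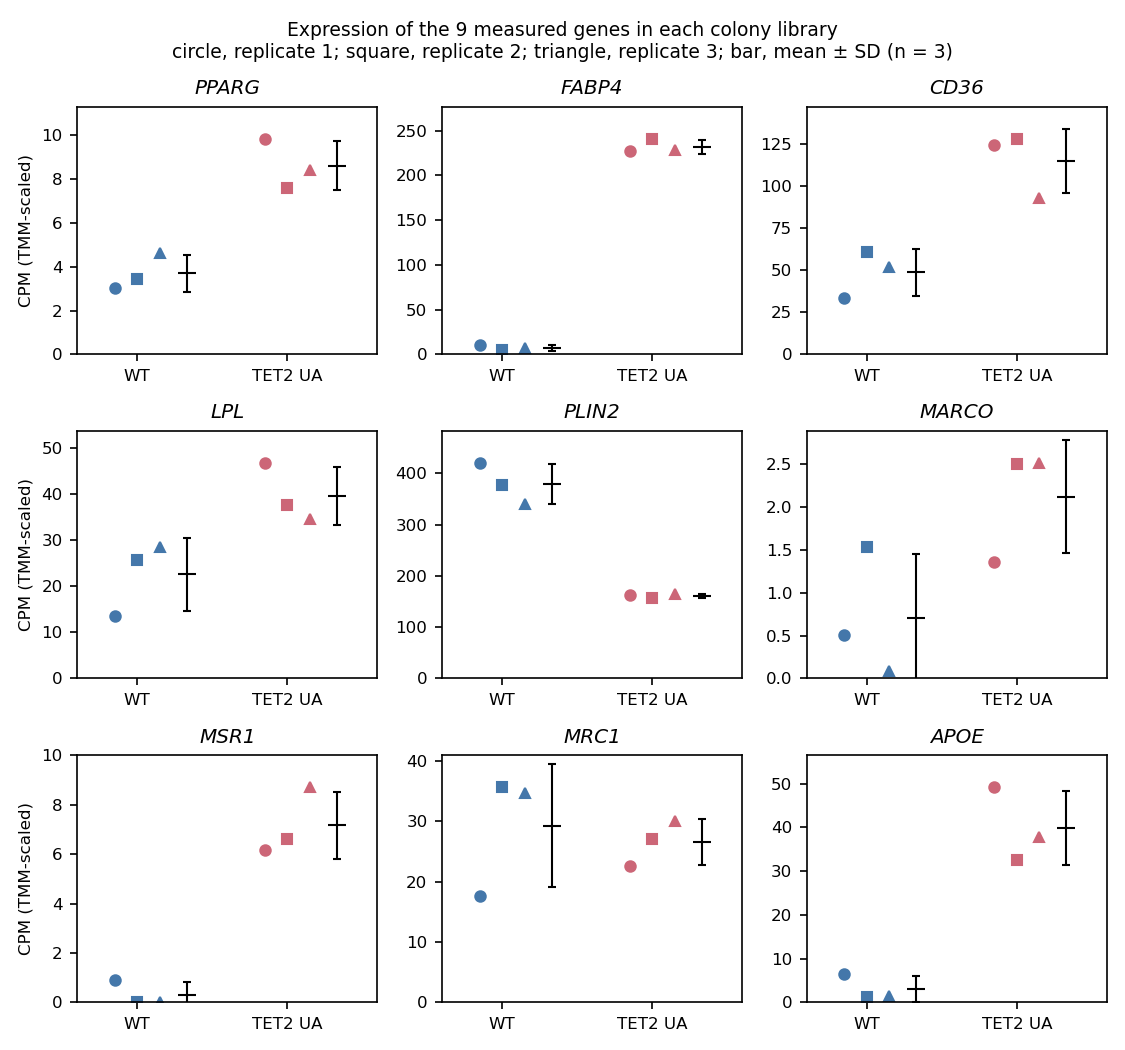
Level of each of the 9 genes (CPM, a separate linear axis from 0 in each panel) in the 3 WT and 3 UA libraries, each point a library and each bar the mean with its SD. FABP4 lies between 4.69 and 10.4 CPM in WT and between 227 and 240.3 CPM in UA, PLIN2 is the gene with all WT points above all UA points, and the points of MARCO and MRC1 overlap.

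PPARG was low in all 6 colonies and higher in UA. It was at 3.02, 3.44 and 4.63 CPM in WT replicates 1 to 3 and at 9.81, 7.60 and 8.42 CPM in UA replicates 1 to 3, from 36 to 66 counts per WT library and 57 to 181 per UA library. Every UA library was above every WT library. The mean went up from 3.70 ± 0.837 to 8.61 ± 1.12 CPM (SD, n = 3 each), a difference of 1.23 ± 0.33 on the log2 scale (SE; edgeR adjusted p = 0.00623) or 2.33-fold in the means. When the 3 UA libraries, which were alike, were summed and entered as 1 sample, the log2 fold change was 1.29 and the call was lost (edgeR adjusted p = 0.105). The authors' deposited table places PPARG on chromosome 2, between 53972278 and 54110651. It names no genome build, whereas Mmul_8.0.1 appears in the submitters' processing notes.

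The partners of PPARG did not move as a block. RXRA, a retinoid X receptor that pairs with it, was at 8.13, 7.17 and 6.90 CPM in WT and 2.98, 2.98 and 7.09 CPM in UA. UA replicate 3 lay within the WT range, and the difference was not called (log2 fold change -0.81, SE 0.40, edgeR adjusted p = 0.0950). It was called without UA replicate 3, at a log2 fold change of -1.31, and with limma-voom, at -0.98. RXRB, another member of that family, rose from 15.3 ± 2.35 to 36.8 ± 3.46 CPM (1.27 on the log2 scale, edgeR adjusted p = 2.84e-04). PPARD, the most widely expressed of the related PPAR receptors in textbook accounts, fell from 22.8 ± 5.79 to 9.32 ± 2.97 CPM (-1.31, SE 0.29, edgeR adjusted p = 0.00239). PPARA, the receptor known from liver fatty acid oxidation, was at a mean of 6.89 CPM in WT and 6.39 CPM in UA and was not called (edgeR adjusted p = 0.821).

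Of 17 receptors and co-regulators, PPARG included, 16 were tested. Of these 10 rose, 2 fell (PPARD and the deacetylase HDAC3) and 4 were not called, with a median log2 fold change of 1.27. Those that rose were 62.5% and those that fell 12.5%, beside 34.6% and 31.4% of all tested genes. Without PPARG, 15 tested genes gave 9 higher and 2 lower. The co-activators had the largest differences among those with at least 5 CPM. NCOA2 rose from 5.10 ± 1.67 to 54.4 ± 6.29 CPM (3.43 on the log2 scale, edgeR adjusted p = 1.96e-06), NCOA3 from 7.95 ± 4.20 to 81.7 ± 8.36 CPM, and the acetyltransferase CREBBP from 14.1 ± 2.01 to 107 ± 3.93 CPM. The co-repressor NCOR1 was at 305 CPM in WT and 263 CPM in UA and was not called (edgeR adjusted p = 0.295). PPARGC1A, a co-activator known from mitochondrial gene control, had no count in WT and 34, 11 and 18 counts in UA, which is at least 26.1-fold higher when WT is set to a group total of 3 counts. It passed the low-count filter through the UA libraries. The related PPARGC1B was at 13.4 and 16.0 CPM and was not called (edgeR adjusted p = 0.332).

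FABP4, the fatty acid carrier of adipocytes, macrophages and some endothelium, had the largest fold of the 9 genes among those detected in every library. It was at 10.4, 4.69 and 6.65 CPM in WT and at 227, 240.3 and 228 CPM in UA. The UA libraries lay within a few percent of one another (coefficient of variation 3.21%), and all were far above the highest WT library, replicate 1. The mean went up from 7.25 ± 2.91 to 232 ± 7.44 CPM (SD, n = 3 each), a difference of 4.96 ± 0.27 on the log2 scale (SE; edgeR adjusted p = 2.21e-07) or 32.0-fold. Over the alternative settings and the fits that left out a library, its log2 fold change ran from 4.73 to 5.35. The row used is ENSMMUG00000041192, named FABP4 in the authors' deposited table, on chromosome 8 from 79747628 to 79756152. There it lies between FABP9 and FABP12, the neighbours that RefSeq's current annotation of the rhesus genome gives for FABP4. A table of gene names gives the symbol FABP4 to another row, ENSMMUG00000020987, which had 38, 23 and 17 counts in WT and 21, 2 and 12 in UA and was not used.

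FABP4 is also an endothelial gene, and adipocytes are its best known source. The other endothelial markers, with FABP4 left out, summed to 366 to 397 CPM in WT and 686 to 723 CPM in UA. Of the 13 tested markers on that list, FABP4 among them, 11 rose, ESAM fell and TIE1 was not called. Those that rose were 84.6% and those that fell 7.69%, beside 34.6% and 31.4% of all tested genes. Without FABP4, 12 tested markers gave 10 higher and 1 lower. ESAM led the list in WT (254 CPM) and, after FABP4, PECAM1 led it in UA (189 CPM). MMRN2 had no count in WT and was at 12.1 CPM in UA. CDH5 rose from 1.24 ± 0.428 to 48.3 ± 2.47 CPM (edgeR adjusted p = 2.09e-07). Both passed the low-count filter through UA alone, as did KDR, EMCN, ROBO4 and GPIHBP1, which also rose. Of the 11 adipocyte markers, 10 have a row and 2 were tested, and the list summed to 7.41 to 11.3 CPM in WT and 55.1 to 62.3 CPM in UA. Most of the UA sum was CFD, a serine protease that myeloid cells make too, at 4.12 ± 1.54 CPM in WT and 48.7 ± 3.62 CPM in UA. The defining adipocyte genes were at or near 0: ADIPOQ and LEP had no count in WT and 8, 3 and 0 and 2, 1 and 0 counts in the UA libraries, and PLIN1 was at no more than 0.705 CPM in any library. The part of endothelial markers in the FABP4 difference was not tested.

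LPL, the lipase that releases fatty acids from lipoproteins, was modestly higher in UA. It was at 13.6, 25.6 and 28.5 CPM in WT and at 46.7, 37.7 and 34.6 CPM in UA, so the lowest UA library was above the highest WT library. The mean rose from 22.6 ± 7.94 to 39.7 ± 6.31 CPM (SD, n = 3 each; 0.82 ± 0.28 on the log2 scale, SE, edgeR adjusted p = 0.0218). Of the 7 called genes it lost its call in the most alternatives. With UA replicate 1 left out it was 0.69 (edgeR adjusted p = 0.0934), without UA replicate 2 it was 0.86 (edgeR adjusted p = 0.0521), and with the UA libraries summed it was 0.91 (edgeR adjusted p = 0.115). GPIHBP1, which anchors LPL on capillary endothelium, had 2, 1 and 0 counts in WT and 179, 104 and 61 in UA. The ratio of depth-scaled totals was 142 (95% exact counting interval 48.3 to 694). That interval covers counting error only and not the spread between colonies. LIPG, the endothelial lipase of the same enzyme family, went the other way, from 75.8 ± 9.73 CPM in WT to 2.87 ± 1.34 CPM in UA (-4.65 on the log2 scale, SE 0.31, edgeR adjusted p = 9.01e-07).

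CD36 rose in every UA library above every WT library. It was at 33.2, 60.8 and 52.1 CPM in WT and at 124, 128 and 92.9 CPM in UA, with UA replicate 3 the lowest of its group and WT replicate 1 the lowest of all. The mean went from 48.7 ± 14.1 to 115 ± 19.1 CPM (SD, n = 3 each; 1.24 ± 0.23 on the log2 scale, SE, edgeR adjusted p = 7.62e-04), 2.36-fold, and its log2 fold change stayed between 1.04 and 1.42 over all alternatives and left-out libraries. CD36 is also a platelet glycoprotein. The megakaryocyte and platelet list summed to 662 to 711 CPM in WT, led by TUBB1, and to 814 to 828 CPM in UA, led by PPBP at 258 CPM. Of its 12 tested genes 5 rose, 3 fell (TUBB1, THBS1 and GFI1B) and 4 were not called. In shares, 41.7% rose and 25% fell, beside 34.6% and 31.4% of all tested genes. PF4, PPBP, ITGA2B, GP1BA and GP1BB of this list passed the low-count filter through UA alone. The part of these markers in the CD36 difference was not tested.

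The wider list of fatty acid binding, uptake and extracellular lipolysis holds 32 genes, of which 27 have a row and 19 were tested: 8 rose, 4 fell (LIPG, LRP8, ACSL5 and SLC27A4) and 7 were not called. Its median log2 fold change of 0.34 stands beside 0.12 for all genes. The 8 that rose are 42.1% of those tested and the 4 that fell 21.1%, beside 34.6% and 31.4% of all tested genes. Of these 8, 4 (GPIHBP1, LRP1 and CAV1 among them) passed the low-count filter through UA alone. FABP4, CD36 and LPL are also among the 8, and the other 16 tested genes gave 5 higher and 4 lower. Without FABP4, CD36 and LPL the list summed to 752 to 1075 CPM in WT and 633 to 716 CPM in UA. CAV1, the coat protein of caveolae, rose from 0.804 ± 0.215 to 41.7 ± 2.09 CPM (5.72 on the log2 scale, edgeR adjusted p = 1.04e-07). LRP1, an endocytic receptor for APOE-bearing remnants, rose from 0.870 ± 0.0526 to 15.8 ± 0.340 CPM (edgeR adjusted p = 1.58e-06). FABP3, the heart-type carrier, was not analysed here. Stromal markers moved with CAV1 and LRP1: the fibroblast and stroma list summed to 125 to 143 CPM in WT, led by DCN, and to 937 to 968 CPM in UA, led by COL1A2 (0.942 ± 0.451 to 560.0 ± 11.9 CPM). Of its 9 tested genes 7 rose, and DCN and THY1 fell. Those that rose were 77.8% and those that fell 22.2%, beside 34.6% and 31.4% of all tested genes. Of those that rose, COL1A1, COL1A2, COL3A1, LUM, CXCL12 and LEPR passed the low-count filter through UA alone. Their part in these differences was not tested.

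PLIN2, the droplet coat protein that most cells load when they store fat, was lower in UA, against the direction of PPARG, FABP4, CD36 and LPL. It was at 419.8, 378 and 341 CPM in WT and at 162, 157 and 165 CPM in UA. The groups were well apart, and the UA libraries were nearly equal. The mean fell from 379.6 ± 39.5 to 162 ± 3.82 CPM (SD, n = 3 each), a difference of -1.23 ± 0.14 on the log2 scale (SE; edgeR adjusted p = 2.55e-05), and the level in WT was 2.35 times that in UA. Over all alternatives and left-out libraries the log2 fold change lay between -1.31 and -1.06. The authors' deposited table places PLIN2 between 64881015 and 64901220 of chromosome 15.

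Other droplet genes were mixed. PLIN3, a coat protein that resembles PLIN2 and moves between cytosol and droplet, rose from 61.1 ± 10.05 to 117 ± 8.69 CPM (0.94 on the log2 scale, SE 0.17, edgeR adjusted p = 6.14e-04). HILPDA, a hypoxia-induced inhibitor of droplet lipolysis, fell from 56.8 ± 15.6 to 4.01 ± 0.444 CPM (-3.83, SE 0.27, edgeR adjusted p = 1.10e-06), and the droplet protein AUP1 fell from 228 ± 60.1 to 70.3 ± 8.22 CPM (-1.70, edgeR adjusted p = 3.33e-05). SOAT1, which makes cholesteryl esters, was at a mean of 103 CPM in both groups. Of the 24 genes on the list, 16 were tested: PLIN3, ABHD5, G0S2 and HSD17B11 rose, PLIN2, HILPDA, MGLL, AUP1 and RAB18 fell, and 7 were not called, with a median log2 fold change of 0.03. Those that rose were 25% of the tested genes and those that fell 31.25%, beside 34.6% and 31.4% of all tested genes. PNPLA2 and LIPA, the lipases that act on droplets and in lysosomes, were not analysed here.

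Textbook targets of PPARG went in both directions. Of 25 listed genes 15 were tested, 8 of which rose and 4 fell, PLIN2, HILPDA and GK among them, with a median log2 fold change of 0.82. Those that rose were 53.3% and those that fell 26.7%, beside 34.6% and 31.4% of all tested genes. FABP4, CD36, LPL and PLIN2 are 4 of the 15 tested, so their own values enter these counts. The other 11 gave 5 higher and 3 lower. CYP27A1, the mitochondrial sterol 27-hydroxylase, rose from 0.897 ± 0.411 to 11.8 ± 2.15 CPM (3.64 on the log2 scale, edgeR adjusted p = 2.40e-05). This gene passed the filter through UA alone. PDK4, a kinase that holds back pyruvate oxidation, was at 17.3 and 11.1 CPM and was not called (log2 fold change -0.62, edgeR adjusted p = 0.0834), although it was called without WT replicate 1, at -0.88. ACSL1 and NR1H3 were not called either. ANGPTL4, a secreted LPL inhibitor, was at 0.457, 0 and 0 CPM in WT and 1.35, 1.25 and 0 CPM in UA, too low to be tested. PLIN5, ADIPOQ and PCK1 had no count in any WT library.

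Genes of fatty acid oxidation were mostly lower in UA. Of 20 tested genes 15 fell, which is 75% beside 31.4% of all tested genes, CPT1A rose, and HADH, HADHA, HADHB and CPT1B were not called. The median log2 fold change was -0.89. CPT1A, the carnitine transferase that admits long-chain fatty acids to mitochondria, rose from 18.2 ± 1.74 to 82.7 ± 2.91 CPM (2.18 on the log2 scale, SE 0.17, edgeR adjusted p = 2.28e-06). Of the enoyl-CoA isomerases, ECI1 fell from 61.9 ± 31.2 to 16.5 ± 2.72 CPM (-1.90), and ECI2 from 71.9 ± 14.4 to 20.4 ± 0.929 CPM (-1.82).

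**Figure D3:**
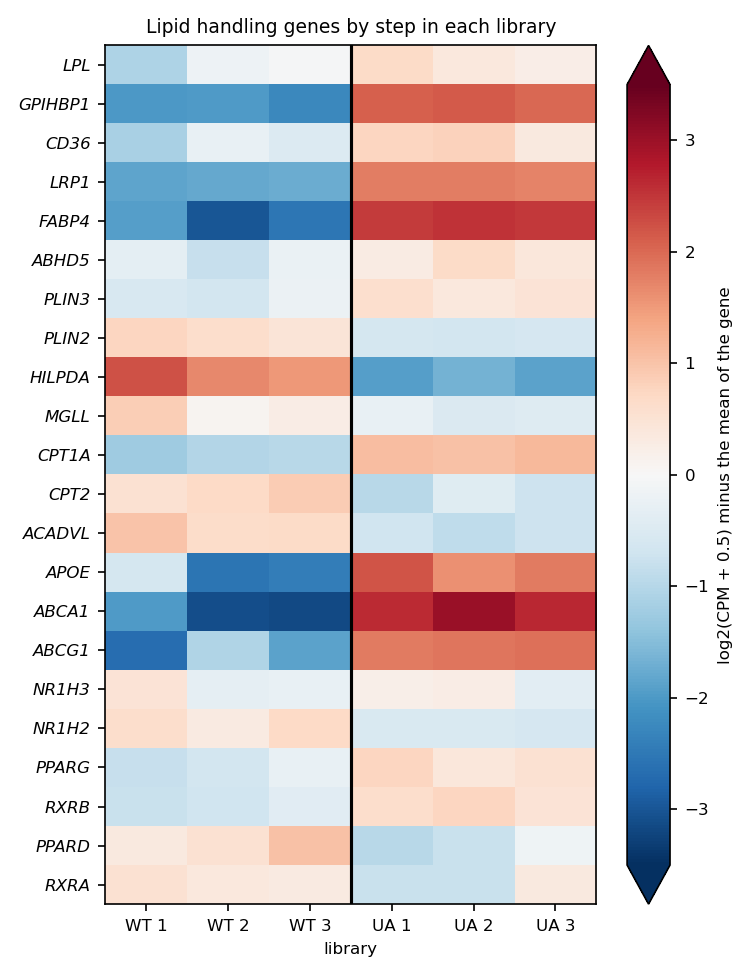
Heat map of 22 lipid-handling genes, ordered by step, in the 6 libraries, where colour is log2(CPM + 0.5) minus the gene's mean over the libraries. Rows such as FABP4 (log2 fold change 4.96) and ABCA1 (6.18) are high in all UA libraries, while PLIN2 (-1.23) and HILPDA (-3.83) are high in all WT libraries.

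APOE, the apolipoprotein that macrophages secrete with cholesterol, was low in WT and clearly present in UA. It was at 6.58, 1.34 and 1.52 CPM in WT and at 49.2, 32.6 and 37.8 CPM in UA. WT replicate 1 held 144 counts against 14 and 18 in the other WT libraries, and it still lay well below the lowest UA library. The mean rose from 3.14 ± 2.98 to 39.9 ± 8.47 CPM (SD, n = 3 each; 3.56 ± 0.51 on the log2 scale, SE, edgeR adjusted p = 1.15e-04), 12.7-fold in the means. Without WT replicate 1 the log2 fold change was 4.80.

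Cholesterol exporters were higher as well. ABCA1, which loads cholesterol onto lipid-poor apolipoproteins, was at 1.01, 0.191 and 0.168 CPM in WT and 36.1, 47.7 and 37.1 CPM in UA. As for APOE, the highest WT library was replicate 1. The log2 fold change of ABCA1 came to 6.18 ± 0.47 (SE; edgeR adjusted p = 1.78e-06), and to 7.74 without WT replicate 1. ABCG1, which exports cholesterol to mature lipoproteins, rose from 2.48 ± 1.60 to 35.3 ± 1.38 CPM (3.90, SE 0.41, edgeR adjusted p = 1.43e-05; 4.50 without WT replicate 2). APOC1, a neighbour of APOE in its gene cluster, had 8, 1 and 0 counts in WT and 47, 41 and 32 in UA (log2 fold change 4.28, SE 0.84, edgeR adjusted p = 0.00100), or 6.06 without WT replicate 1. ABCA1, APOC1 and CETP passed the low-count filter through UA alone. The receptors that sense oxysterols and control these genes were not called higher: NR1H3 (LXR alpha) was at 6.53 and 6.71 CPM and was not called (edgeR adjusted p = 0.930), and NR1H2 (LXR beta) fell from 171 ± 23.5 to 79.8 ± 1.73 CPM (edgeR adjusted p = 1.09e-04). Of 14 tested genes on this list 7 rose, 3 fell (NR1H2, LPCAT3 and SMPDL3A) and 4 were not called. Those that rose, APOE among them, were 50% and those that fell 21.4%, beside 34.6% and 31.4% of all tested genes. APOC2 was not analysed here.

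MSR1 was found in a single WT colony and in all UA colonies. It had 20, 0 and 0 counts in WT and 114, 69 and 59 in UA, or 0.914, 0 and 0 CPM against 6.18, 6.63 and 8.71 CPM. In WT replicates 2 and 3 a level of up to 0.287 and 0.253 CPM is compatible with no count, limits that cover counting error only. The mean rose from 0.305 ± 0.528 to 7.18 ± 1.35 CPM (SD, n = 3 each; 4.20 ± 0.88 on the log2 scale, SE, edgeR adjusted p = 0.00152), 23.6-fold. MSR1 passed the low-count filter through the UA libraries. Without WT replicate 1 the WT group held no count against 242 in UA, at least 50.6-fold higher in UA.

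MARCO, the related class A receptor, was low in every colony. It had 11, 16 and 1 counts in WT and 25, 26 and 17 in UA, or 0.503, 1.53 and 0.0842 CPM against 1.35, 2.50 and 2.51 CPM. WT replicate 2 lay above UA replicate 1, so the groups overlapped. The log2 fold change of 1.60 (SE 0.82) was not called (edgeR adjusted p = 0.107). It was called without WT replicate 2 (2.67, edgeR adjusted p = 0.0245), with limma-voom (2.16, limma adjusted p = 0.0281), and with all libraries thinned to the smallest total (1.63, edgeR adjusted p = 0.0461). The authors' deposited table places MARCO between 12240320 and 12296710 of chromosome 12.

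MRC1 was at 17.6, 35.7 and 34.7 CPM in WT and at 22.6, 27.0 and 30.1 CPM in UA. All UA values fell inside the WT range, with WT replicate 1 the lowest of the 6 and the other WT libraries the highest. The means were 29.3 ± 10.2 and 26.6 ± 3.78 CPM (SD, n = 3 each), and the log2 fold change of -0.14 (SE 0.28) was not called (edgeR adjusted p = 0.672). It was -0.41 without WT replicate 1 (edgeR adjusted p = 0.0508) and 0.017 without WT replicate 2. MRC2, the collagen-binding relative of MRC1, rose from 3.84 ± 2.11 to 16.0 ± 1.30 CPM (2.07, SE 0.37, edgeR adjusted p = 5.74e-04).

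**Figure D4:**
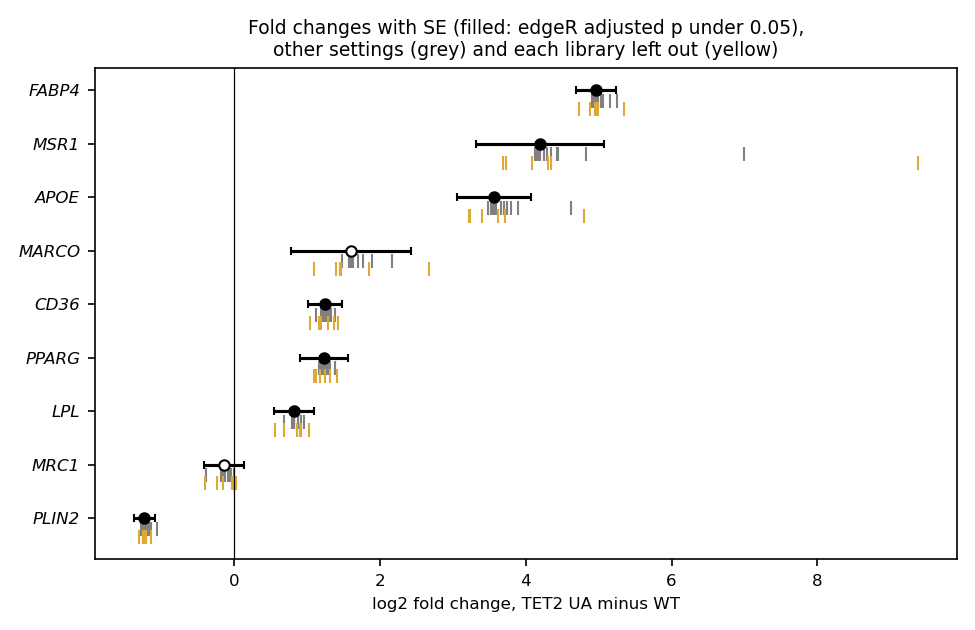
Log2 fold change (UA minus WT) of the 9 genes with its standard error, filled where called, with grey points for the other settings and yellow points for fits that left out a library. PLIN2 is the called gene below 0, at -1.23, and the far MSR1 point is the fit without WT replicate 1, where WT has no count and the fitted value is not a measured fold.

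Among 25 scavenger receptor genes, 23 were tested. Of these, 14 rose, 3 fell (CXCL16, AGER and SCARF1) and 6 were not called, with a median log2 fold change of 1.51. The 14 that rose are 60.9% of the tested genes and the 3 that fell 13.04%, beside 34.6% and 31.4% of all tested genes. CD36, MSR1, MARCO and MRC1 are on this list; the other 19 tested genes gave 12 higher and 3 lower. Of the 23 tested genes 8, all but MARCO called higher, passed the low-count filter through UA alone, and MEGF11, STAB2, CD5L and LRP1 are among them. The largest rises with a mean of at least 5 CPM were in MEGF11, a relative of an engulfment receptor (0.371 ± 0.442 to 33.0 ± 1.46 CPM), STAB2, a hyaluronan-clearing receptor of sinusoidal endothelium (0.383 ± 0.250 to 23.9 ± 0.888 CPM), and CD5L, a protein secreted by tissue macrophages (0.300 ± 0.139 to 18.6 ± 4.42 CPM). The log2 fold change of MEGF11 was 6.78, or 5.92 and 8.35 without WT replicates 1 and 2. STAB1 rose from 4.48 to 22.0 CPM (edgeR adjusted p = 1.69e-04). CD68, a lysosomal glycoprotein of macrophages, rose from 7.62 ± 1.71 to 51.6 ± 2.07 CPM (2.77 on the log2 scale, edgeR adjusted p = 2.61e-06). CD163, the receptor for haemoglobin bound to haptoglobin, rose from 32.9 ± 6.45 to 93.6 ± 9.08 CPM (1.51, edgeR adjusted p = 5.03e-05). SCARB1, the HDL receptor, was at 41.5 and 36.4 CPM and was not called (edgeR adjusted p = 0.503), nor was OLR1, a receptor for oxidised LDL, at 5.57 and 5.39 CPM (edgeR adjusted p = 0.932).

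MRC1 and CD163 are also read as markers of alternatively activated macrophages, and that list was divided. Of 13 tested genes 7 rose, 4 fell (CCL22, CCL18, CLEC10A and IL4R), and MRC1 and STAT6 were not called. Those that rose were 53.8% and those that fell 30.8%, beside 34.6% and 31.4% of all tested genes. FOLR2, a folate receptor of tissue macrophages, rose from 0.171 ± 0.221 to 14.8 ± 3.45 CPM (6.44, or 7.72 without WT replicate 3, on the log2 scale; edgeR adjusted p = 6.63e-06). FOLR2 and CD209 passed the low-count filter through UA alone, and CCL18 and CCL22 through WT alone. F13A1, a coagulation factor subunit, rose from 34.4 ± 11.2 to 346 ± 5.77 CPM, while CCL18, a chemokine of alternatively activated macrophages and dendritic cells, fell from 14.9 ± 4.64 to 0.828 ± 0.554 CPM (-4.00, edgeR adjusted p = 2.43e-05; -4.82 without UA replicate 1). Markers of dendritic and Langerhans cells moved with these: the list summed to 445 to 476 CPM in WT and 360.0 to 386 CPM in UA, with 6 of 9 tested genes lower, FLT3 higher and CD1C and CCR7 not called. Those that fell were 66.7% and those that rose 11.1%, beside 31.4% and 34.6% of all tested genes. CD207 of this list passed the low-count filter through WT alone. The part of these markers in the chemokine differences was not tested.

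GM-CSF, which induces PPARG in alveolar macrophages, showed the opposite difference to PPARG at the level of its own transcript. CSF2, the GM-CSF gene, was at 98.3, 58.4 and 74.4 CPM in WT and 0.217, 0.0962 and 0 CPM in UA. All WT libraries held it and it was nearly absent from UA (log2 fold change -9.03, SE 0.43, edgeR adjusted p = 1.06e-07). CSF2RB, the signalling chain of its receptor, was at 61.0 and 63.4 CPM and was not called (edgeR adjusted p = 0.827), and CSF2RA was not analysed here. BACH2, a transcriptional repressor, rose from 2.78 ± 0.377 to 207 ± 16.2 CPM (6.23, SE 0.20, edgeR adjusted p = 1.22e-08). Of 16 tested genes on the GM-CSF and alveolar macrophage list 9 rose, PPARG and FABP4 among them, 4 fell (CSF2, MCEMP1, SPI1 and CEBPB) and 3 were not called (CSF2RB, MARCO and BHLHE41). Those that rose were 56.25% and those that fell 25%, beside 34.6% and 31.4% of all tested genes. Without PPARG, FABP4 and MARCO, 13 tested genes gave 7 higher and 4 lower. Without UA replicate 1 the log2 fold change of CSF2 was -10.14. CSF2 passed the low-count filter through WT alone, and SIGLEC1, which rose, and MARCO passed it through UA alone.

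**Figure D5:**
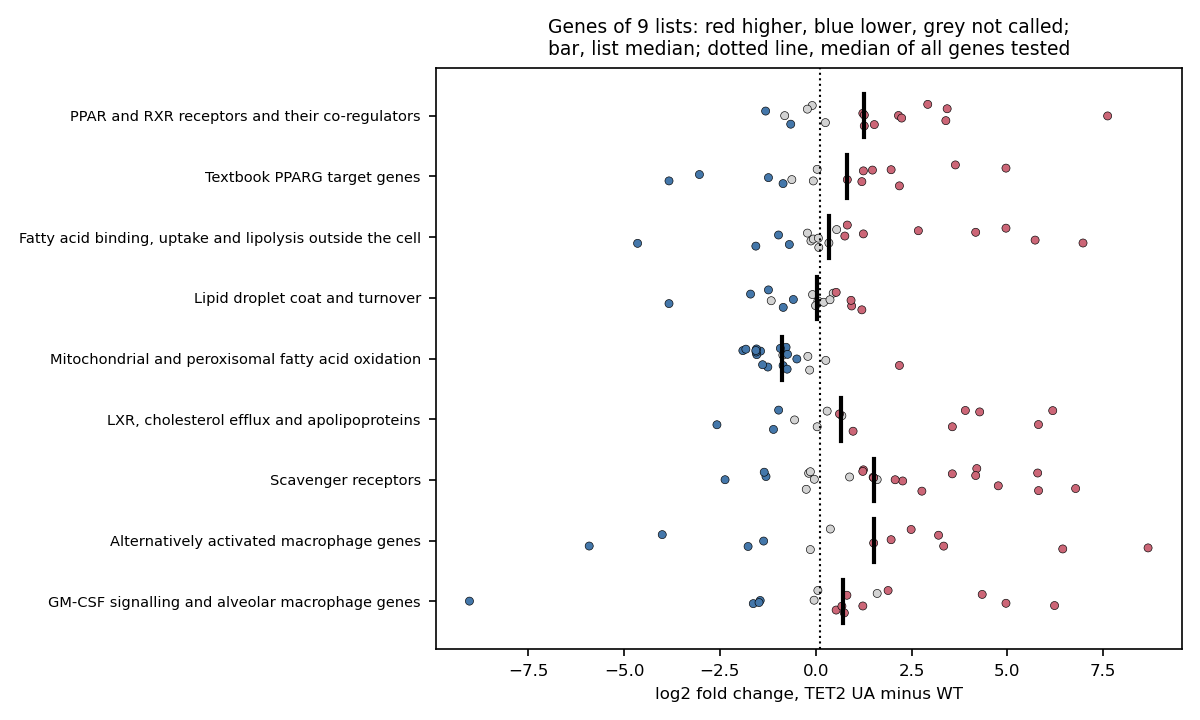
Log2 fold change (UA minus WT) of every tested gene on the 9 pathway lists, each point a gene, with a bar at the list's median and a dotted line at the median of all tested genes, 0.12. The fatty acid oxidation genes lie mostly below 0 (median -0.89), and the scavenger receptors mostly above it (median 1.51); the extreme points include genes with no count in a group, such as PPARGC1A and CD209, whose fitted values are not measured folds.

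The 9 genes were more even among the UA colonies than among the WT colonies. The coefficient of variation in UA ran from 2.37% (PLIN2) to 31.3% (MARCO), and in WT from 10.4% (PLIN2) to 173% (MSR1, found in 1 library). WT replicate 1, the deepest library, differed from the other WT libraries in both directions. Its APOE level was 4.61 times and its FABP4 level 1.84 times the mean of WT replicates 2 and 3, whereas LPL and MRC1 were each 2.0 times and CD36 1.70 times higher in those than in replicate 1.

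Ratios of counts within a library do not depend on how libraries are scaled, and 3 pairs were compared, with 1 added to each count. The ratio of FABP4 to FABP5 could not be formed. The log2 ratio of PPARG to RXRA was -1.42, -1.04 and -0.57 in WT and 1.70, 1.32 and 0.24 in UA, so every UA ratio lay above every WT ratio (difference 2.10). Counts are not divided by gene length, so the sign of a ratio does not say which gene is at the higher level. The log2 ratio of MRC1 to MRC2 was 2.95, 3.50 and 2.46 in WT and 0.63, 0.73 and 0.81 in UA, with no overlap (difference -2.25). That of MARCO to MSR1 was -0.81 in WT replicate 1 and -2.15, -1.37 and -1.74 in UA. In WT replicates 2 and 3 MSR1 had no count, so the ratio there is set by the added constant, and the difference between groups moved with it: -3.18 with 1, -3.71 with 0.5 and -2.16 with 5 added. It is not a measured size. Each difference had p = 0.1 by a two-sided exact permutation test, the smallest that 3 against 3 libraries allow, and 0.1 after adjustment over the 3 ratios.

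The genes whose pattern over the 6 libraries was most like that of PPARG were sought among 9336 genes with a symbol and a mean of at least 5 CPM, by the distance between centred profiles of log2(CPM + 0.5). The nearest were ZNF619 (distance 0.173), ALDH5A1 (0.184), C1QTNF6 (0.216), GPR3 (0.233) and AKAP17A (0.237), beside a median distance of 1.79. LPL (0.655), CD36 (0.703), MRC1 (1.67) and MARCO (1.76) were nearer to PPARG than that median, and FABP4, at 4.82, was farther from it than any other of the 9 genes. With 2 groups of 3 libraries this likeness mostly follows the difference between the groups.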

How the data were processed

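RNA of single colonies was extracted with a Qiagen kit, reverse transcribed with SMART-Seq V4 and made into Nextera XT libraries, per the labels' protocols; this chemistry keeps no record of strand or of single molecules, so antisense and overlapping genes are not separable and PCR duplicates add to the counts. The submitters' processing notes name the build Mmul_8.0.1 and bcl2fastq; for the aligner and counter, nothing is given in the sources used here. Raw counts per gene (32386 rows) were deposited. The authors also deposited a comparison table whose columns are, per the file headers, mean normalized counts (a signal), a log2 fold change, a test statistic (a score) and p-values. Its compared libraries are not stated and its means do not match these libraries (MPO 74.4 there, 125963 as a depth-scaled mean here), so it was used for symbols and coordinates only. It gave symbols for 9226 Ensembl IDs, a gene name table for 7223 more, and 13408 rows have none.

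The test was that of edgeR 4.0.16, run in R 4.3.3 (quasi-likelihood, robust, TMM, filterByExpr with minimum count 10 and total 15), with Benjamini-Hochberg adjustment over 13768 genes. SE is the log2 fold change over the square root of F. Levels are TMM-scaled CPM. For groups with no count, folds are bounds against 3 counts, and with 1 to 3 counts ratios with 95% exact counting intervals. A self-test of the fit used simulated counts with a small set of changed genes and equal spread in both groups. These libraries differ in both respects, so that self-test does not measure error rates here. No library was merged, since the labels list separate colonies. Between libraries of a group, chi-square per gene was 12.1 to 82.4 in WT (mean; median 4.97 to 16.9) and 4.29 to 5.21 in UA (median 1.91 to 2.32). Amplified reads are not independent molecules, so these values do not show whether the UA libraries come from separate colonies.

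The 9 genes and all gene lists were chosen with earlier results of these data known. Named are these genes, a fixed set of partner genes and, per list, up to 3 called genes of largest change whose groups did not overlap and whose mean reached 5 CPM, and the leading and absent markers. GPIHBP1, PPARGC1A, CD209, CDH5, PLIN1, PLIN4, LIPE, AQP7, CIDEC, RBP4 and members named where a count was 5 or fewer were chosen after their values were seen. Alternatives were DESeq2 1.42.0 size factors and test, other scalings and filters, limma 3.58.1 voom with quality weights, a replicate block, summed UA libraries, thinning, a fit with no ribosomal protein or mitochondrial genes, and fits lacking each library in turn. Further alternatives were a fit without the robust option and the main fit called at adjusted p under 0.1. That looser threshold is among the alternatives in which RXRA and PDK4 gained a call. A few genes of the lists are not reported here by name.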

Additional observations from a re-analysis of the deposited data

How the results depend on the processing

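Of 51 named genes, 39 kept their call and direction in all 19 alternatives in which they could be fitted, 7 changed sign in at least 1, PPARG and LPL lost their call in at least 1, and MARCO, RXRA and PDK4 gained one. With the 3 UA libraries summed to 1 sample, 2950 genes were higher and 2410 lower instead of 4770 and 4321, and 44 and 27 of the pathway genes instead of 57 and 41; fewer samples enter that fit. Leaving out a library gave 4133 to 5371 genes higher and 3764 to 4578 lower, 5 to 7 and 1 of the 9 genes, and 50 to 63 and 38 to 44 pathway genes. It moved the log2 ratio differences over -4.30 to -1.85 (MARCO over MSR1, which the constant added to the counts moved over -3.71 to -2.16), 1.79 to 2.52 (PPARG over RXRA) and -2.50 to -1.98 (MRC1 over MRC2). The 7 genes that changed sign were never called, and the cause was not tested. By library size alone PPARA was at 0.059, SOAT1 at 0.15 and OLR1 at 0.12 (log2); by upper-quartile factors SOAT1 was at 0.089 and OLR1 at 0.054; with at least 5 CPM SOAT1 was at 0.048 and OLR1 at 0.012. Thinned, PPARA was at 0.032 and SOAT1 at 0.000167. NR1H3 was at -0.022 without mitochondrial and ribosomal protein genes, OLR1 at 0.018 with UA summed, and CSF2RB at -0.13 with limma-voom. Leaving out a library gave MRC1 -0.41 to 0.017, PPARA -0.26 to 0.12, NCOR1 -0.35 to 0.0029, NR1H3 -0.12 to 0.39, SOAT1 -0.13 to 0.081, OLR1 -0.15 to 0.15 and CSF2RB -0.13 to 0.21.

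The replicate numbers share only a number: same-numbered libraries correlated at 0.016 to 0.033 in their deviations, although each library correlated best with its own number, a hint from the data and not the design. With the replicate block 4765 genes were higher and 4174 lower, 6 and 1 of the 9 genes, and 58 and 41 pathway genes, and SOAT1 was at 0.0057. Library size alone, the scaling that moved the median of all genes most, put it at 0.28 instead of 0.12 and gave 5158 higher and 3772 lower genes. Among the 9 genes, MARCO and MSR1 had the fewest counts in WT: 3 counts amount to between 0.137 and 0.443 CPM, depending on the library.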
